A study of Mus musculus with 2 samples.

Results

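The 10 genes described here encode 3 Notch receptors (Notch1, Notch3 and Notch4), 3 Notch ligands (Dll4, Jag1 and Jag2) and 4 transcription factors that Notch signalling switches on (Hey1, Hey2, Heyl and Hes1). They were picked by gene symbol from the 55357 genes listed in the deposited tables, and all 10 were found. The values are counts of unique molecular identifiers (UMIs), which mark single captured RNA molecules, in each cell of 2 droplet libraries of mouse heart.

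The study deposited 2 libraries, 1 of Sham hearts and 1 of hearts under pressure overload by TAC (transverse aortic constriction), in which the aorta is tied so that the left ventricle pumps against a raised pressure. By the labels both are C57BL/6 hearts with mixed cell types, and the TAC mice were males, 8 weeks old at surgery, whose aortic arch was tied with a nylon suture over a needle and kept so for 6 weeks. The Sham label gives the operation without the constriction, while the design text of the deposit speaks of uninjured mice. Each library pools the dissociated cells of 3 to 5 hearts, so neither condition has a replicate library and the animals within a pool cannot be told apart.

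Notch receptors sit in the plasma membrane and are activated by ligands on a neighbouring cell. Binding leads to cleavage of the receptor, and its intracellular part enters the nucleus, joins the DNA-binding protein RBPJ and switches on Hes and Hey genes, which encode repressors of transcription. In blood vessels the pathway is known for arterial identity and for the restraint of endothelial sprouting, and NOTCH3 is known as the receptor of mural cells, the pericytes and smooth muscle cells that wrap vessels.

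The RefSeq promoter windows of Hey2 and Notch4 are shown because they were the only ones, among the 7 members with a window, that held either of 2 short motifs. The first motif was TGGGAA, the core of the site bound by RBPJ, and the other was AGGAAG, a core bound by ETS factors, which include regulators of endothelial genes. Both strands were read (TTCCCA and CTTCCT on the other strand). Each window (build GRCm38.p6) runs from 250 bases before the transcription start to 30 bases after it and is written 5′ to 3′ on the gene's strand, with the motifs in capitals. Hey2 is on the minus strand at chr10:30842754-30843033 and Notch4 on the plus strand at chr17:34564045-34564324.
Hey2: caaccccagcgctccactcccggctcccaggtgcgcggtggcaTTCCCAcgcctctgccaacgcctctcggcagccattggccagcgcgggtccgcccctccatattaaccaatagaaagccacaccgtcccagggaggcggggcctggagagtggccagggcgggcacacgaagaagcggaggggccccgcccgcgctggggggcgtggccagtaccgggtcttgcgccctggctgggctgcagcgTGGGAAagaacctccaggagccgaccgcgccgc
Notch4: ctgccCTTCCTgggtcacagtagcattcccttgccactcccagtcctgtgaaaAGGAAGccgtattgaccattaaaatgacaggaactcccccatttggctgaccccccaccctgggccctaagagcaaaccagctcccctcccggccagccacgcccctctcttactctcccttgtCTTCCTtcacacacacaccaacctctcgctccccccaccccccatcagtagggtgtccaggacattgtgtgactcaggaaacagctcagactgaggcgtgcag
Hey2 holds 2 matches to the RBPJ core, with first bases at positions -207 and -3 from the start, and Notch4 holds 3 matches to the ETS core, at -245, -197 and -73. Over 32851 promoter windows of the same length, 23.8% held the RBPJ core at least once and 3.4% at least 2 times, while 32.9% held the ETS core at least once and 7.74% at least 2 times. The windows of Notch1, Notch3, Dll4, Jag1 and Jag2 held neither, and Hey1, Heyl and Hes1 have no entry. A match in letters is a description and not a bound site.

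By GENCODE M21 (build GRCm38) the receptor genes are Notch1 on chromosome 2 from 26457903 to 26516663 (minus strand), Notch3 on chromosome 17 from 32120820 to 32166852 (minus strand) and Notch4 on chromosome 17 from 34564268 to 34588503 (plus strand). The ligand genes are Dll4 on chromosome 2 from 119325784 to 119335962 (plus strand), Jag1 on chromosome 2 from 137081456 to 137116644 (minus strand) and Jag2 on chromosome 12 from 112907819 to 112929776 (minus strand). The target genes are Hey1 on chromosome 3 from 8663359 to 8667256 (minus strand), Hey2 on chromosome 10 from 30832359 to 30842801 (minus strand), Heyl on chromosome 4 from 123233556 to 123249875 (plus strand) and Hes1 on chromosome 16 from 30064384 to 30067796 (plus strand). The build behind the deposited counts is not given in the sources used here.

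After removal of doublets the Sham library held 9465 cells and the TAC library 9459, with medians of 1906 and 2080 UMIs per cell. The median mitochondrial share of UMIs was 0.459% in Sham and 0.288% in TAC over all cells. In cardiomyocytes it was 0.234% in Sham and 0.128% in TAC. Cell types were named from marker genes that held none of the 48 genes of a Notch pathway list, and these 48 genes were left out of the clustering. A name such as pericyte therefore means a pericyte-like cluster, one with the markers of that type. Whether markers outside the list, such as those of arterial cells, depend on Notch signalling was not tested. The types used most below were blood endothelial cells (1903 and 2252 cells in Sham and TAC), pericytes (1065 and 1044), smooth muscle cells (49 and 43), cardiomyocytes (2507 and 2398), fibroblasts (2289 and 2128) and macrophages (1411 and 1329). Of the blood endothelial cells, 137 and 201 were arterial, 629 and 799 capillary, 333 and 468 venous and 192 and 301 endocardial, while 612 and 483 were given no subtype, and a further 85 and 112 cells were lymphatic endothelial. The venous name rests on 3 markers (Nr2f2, Vcam1 and Ephb4) of a list of 8. Ackr1 and Sele, also listed, had no UMI in the Sham venous cells, while all 8 had some in TAC. The summed level of the list (units below) was 773 in Sham and 932 in TAC in venous cells. It was lower in capillary cells (302 and 337) but higher in endocardial cells (4037 and 3774). The capillary markers summed to 1391 and 1570 in the venous cells, 2457 and 2318 in arterial cells and 3012 and 2995 in capillary cells. The arterial name rests on 9 markers, Gja5 among them. A venous or arterial cell below therefore means a cell of the cluster so named, and its identity was not tested further. The libraries shared 32 barcode sequences, which were kept.

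A level below is the number of UMIs of a gene per 1000000 UMIs of all genes in a cell type. Where 2 values are joined by "and" with no other label, the first is Sham and the other is TAC. Ranges in parentheses are exact 95% intervals that cover counting error only, not the spread between mice, and no test was possible with 1 library per condition. A gene was compared between conditions where it had at least 20 UMIs in 1 of the libraries, and it passed the fold at 1.5 times or more in either direction. A gene that reached this minimum through 1 library alone was in part chosen by its UMIs there. Members that passed in this way are named beside their call, which is a description. Between cell types a gene had to pass 2 times in both libraries, with at least 20 UMIs in 1 of the types. A gene that reached this minimum through 1 type alone, with fewer than 20 UMIs in the other, was in part chosen by its UMIs in that type. Such genes are named beside each count, and the counts that hold them are descriptions.

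**Figure D1:**
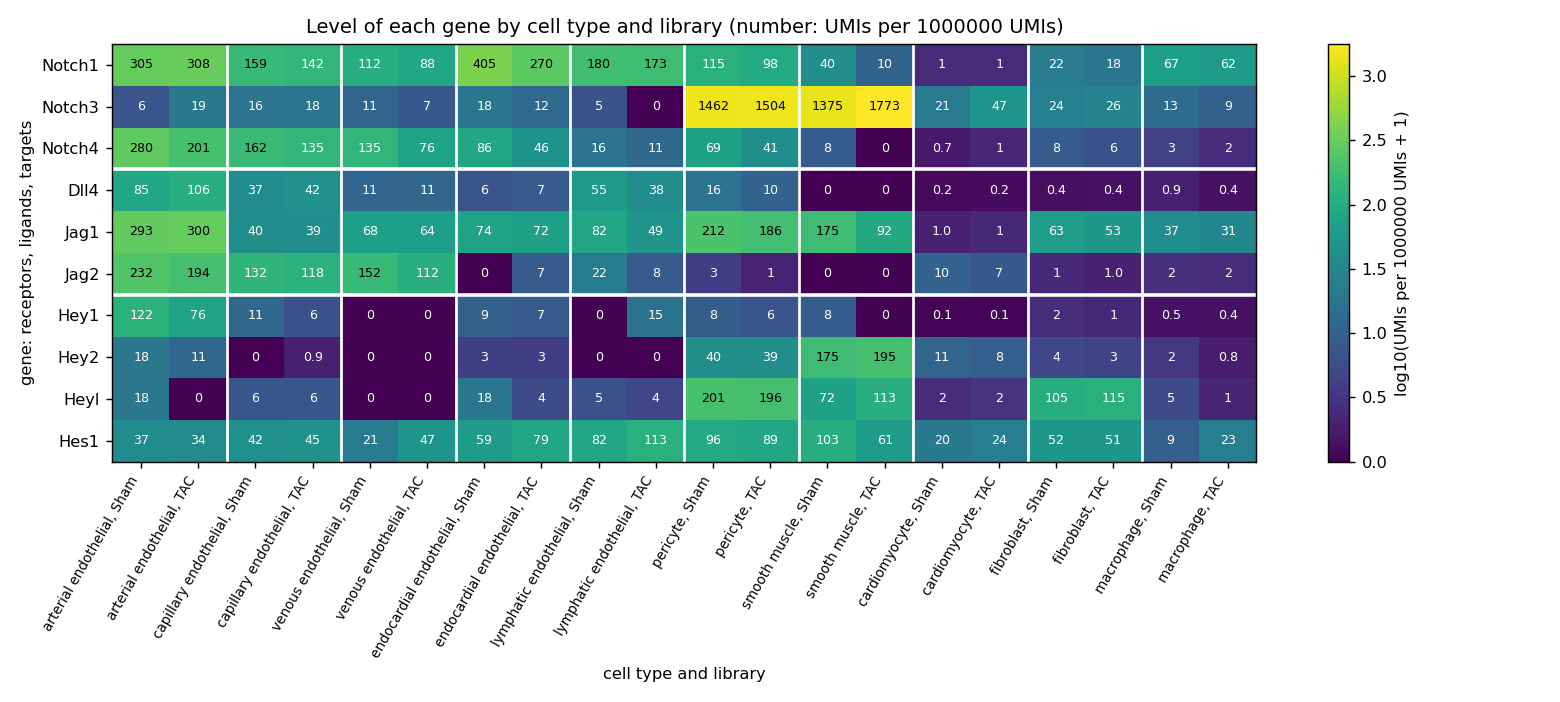
Level of each of the 10 genes, ordered as receptors, ligands and targets, in cell types of the Sham and TAC libraries. Colour is on a log10 scale of UMIs per 1000000 UMIs and the printed number is the level itself. Notch3 stands at 1462 and 1504 in pericytes and 1375 and 1773 in smooth muscle cells, and at 21.2 and 46.9 in cardiomyocytes.

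Among the receptors, Notch3 was highest in the mural cells. Its level was 1462 (1408 to 1519) in Sham and 1504 (1449 to 1559) in TAC in pericytes and 1375 (1177 to 1595) in Sham and 1773 (1518 to 2057) in TAC in smooth muscle cells. The ratio of smooth muscle cells to pericytes was 0.940 (0.801 to 1.10) in Sham and 1.18 (1.01 to 1.37) in TAC, so these neighbours do not differ beyond counting error in Sham. Pericytes held 80.0% and 74.4% of all Notch3 UMIs. After thinning each cell to 1000 UMIs, 71.8% (68.7 to 74.7) of 875 Sham and 73.2% (70.3 to 76.0) of 956 TAC pericytes had a Notch3 UMI, with 190 and 88 shallower cells left out. Without thinning the shares were 79.8% and 85.8%, at medians of 1583 and 1701.5 UMIs. The thinned share in blood endothelial cells, which serve as a background, was 1.19% and 1.25%, at medians of 1105 and 1264.5 UMIs before thinning.

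Blood endothelial cells had 43 Notch3 UMIs in each library, a level of 17.7 and 13.3. The ratio of the pericyte to the endothelial level was 82.5 (61.1 to 114) in Sham and 113 (83.8 to 157) in TAC. The 9 pericyte markers were also seen in blood endothelial cells, at a summed level of 181 and 149.9 against 9034 and 9807 in pericytes, and the smooth muscle markers summed to 83.3 and 67.1 there against 8717 and 8843 in smooth muscle cells. The part of mural RNA in the endothelial Notch3 count was not tested. In fibroblasts Notch3 was at 24.3 and 26.4 and in macrophages at 12.7 and 8.53. The 7 Notch3 UMIs of TAC B cells all lay in 1 of 36 cells.

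Notch1, a receptor used by many cell types, was highest in endothelium. Endocardial cells, which line the chambers, had a level of 405 (339.9 to 479) in Sham and 270.4 (232 to 313) in TAC, and arterial endothelial cells had 305 (226 to 402) in Sham and 308 (244 to 383) in TAC. The ratio of arterial to endocardial cells was 0.753 (0.533 to 1.05) in Sham and 1.14 (0.865 to 1.49) in TAC, so these neighbours do not differ beyond counting error in either library. Lymphatic cells followed at 180.5 (124 to 253) and 173 (127 to 231), capillary cells at 159 (133 to 189) and 142 (120.4 to 166) and venous cells at 112 (83.8 to 146) and 87.9 (67.8 to 112). The ratio of the arterial to the venous level was 2.72 (1.81 to 4.09) in Sham and 3.50 (2.496 to 4.93) in TAC.

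Outside endothelium Notch1 was at 115 (99.9 to 131) in Sham and 98.2 (84.7 to 113) in TAC in pericytes and at 67.5 (57.1 to 79.2) in Sham and 62.1 (52.8 to 72.4) in TAC in macrophages. Fibroblasts were lower, at 22.5 and 17.7, and cardiomyocytes had 19 UMIs in each library, a level of 1.41 and 1.45. The summed level of the 10 endothelial markers was 9923 and 10626 in blood endothelial cells, 288 and 274 in pericytes, 159.9 and 154 in macrophages and 40.9 and 49.7 in cardiomyocytes. The ratio of the pericyte to the endothelial level of Notch1 was 0.587 (0.496 to 0.691) in Sham and 0.583 (0.491 to 0.689) in TAC. The part of endothelial RNA in the pericyte Notch1 count was not tested.

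Notch4, a receptor known from endothelium, had an arterial level of 280.4 (205 to 374) in Sham and 201 (151 to 263) in TAC. Capillary cells had 162 (135 to 192) and 135 (114 to 158), venous cells 135 (104 to 173) and 75.7 (57.2 to 98.3) and endocardial cells 85.7 (57.4 to 123) and 46.3 (31.5 to 65.7). The order arterial, capillary, venous, endocardial was the same in both libraries, although the intervals overlap between capillary and venous cells in Sham, between arterial and capillary cells in TAC, and between venous and endocardial cells in both. Lymphatic cells had 3 UMIs in each library, with a ratio to blood endothelium of 0.105 (0.0215 to 0.308) in Sham and 0.105 (0.0215 to 0.309) in TAC. Notch4 was also seen in pericytes, at 69.1 and 40.5, and in fibroblasts, at 7.74 and 5.59.

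Of the ligands, Jag1 was much higher in arterial than in capillary cells. Its level was 293 (216 to 388) in Sham and 300.2 (238 to 374) in TAC in arterial cells and 39.8 (27.2 to 56.2) in Sham and 38.7 (27.9 to 52.3) in TAC in capillary cells, a ratio of 7.35 (4.60 to 11.9) in Sham and 7.75 (5.27 to 11.6) in TAC. Over the alternative settings the ratio ran from 4.80 to 13.5 in Sham and 4.73 to 13.4 in TAC. Jag1 was left out of the clustering but still stood among the 10 leading genes of the arterial cluster. Venous cells (67.6 and 63.6) and endocardial cells (73.9 and 71.7) lay between them. At 1000 UMIs per cell, 27.5% (18.1 to 38.6) of 80 Sham and 19.8% (13.3 to 27.9) of 126 TAC arterial cells had a Jag1 UMI, with 57 and 75 shallower cells left out. The shares were 26.3% and 26.9% unthinned, at medians of 1092 and 1169 UMIs, and the thinned share in cardiomyocytes was 0.121% and 0.0839%, at medians of 4505 and 4914.5 UMIs.

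The arterial cells were not alike in Jag1. In each library's own clustering a small cluster led by Gja5, a gap junction gene of arteries, held 35 Sham and 90 TAC arterial cells. Jag1 was at 624 (427 to 881) and 404 (307 to 521) in these and at 142 (81.1 to 230.4) and 171 (104 to 264) in the other arterial cells. Gja5 had 21 and 61 UMIs inside the cluster but 0 and 1 in the other 102 and 111 arterial cells. Dll4 was at 97.5 (31.7 to 228) and 82.1 (42.4 to 143) inside the cluster and 79.8 (36.5 to 151) and 137 (78.2 to 222) outside, with overlapping intervals in both libraries.

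Jag1 was also seen in mural and stromal cells. Pericytes had a level of 212 (191 to 234) in Sham and 186 (167 to 206) in TAC and held 37.7% and 36.1% of all Jag1 UMIs, while fibroblasts at 62.7 and 52.8 held 32.9% and 27.6%. Smooth muscle cells had 22 and 9 Jag1 UMIs, a level of 175 (109.6 to 265) and 92.2 (42.2 to 175). Macrophages were at 37.1 and 31.4, and lymphatic cells at 82.0 and 49.0.

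Dll4, a ligand of arterial and sprouting endothelium, was sparse, with 125 and 144 UMIs over all cells. It was at 85.3 (46.7 to 143) in Sham and 106 (70.7 to 154) in TAC in arterial cells and at 37.3 (25.2 to 53.3) in Sham and 42.4 (31.0 to 56.6) in TAC in capillary cells. Venous cells had 5 and 8 UMIs (10.6 and 10.8) and endocardial cells 2 and 5 (5.91 and 7.47). The arterial to capillary ratio was 2.29 (1.12 to 4.45) in Sham and 2.51 (1.51 to 4.10) in TAC, but the TAC ratio was 0.978 when cells with under 500 detected genes were left out, and other settings gave 2.12 to 12.3 in Sham and 0.978 to 4.03 in TAC. Lymphatic cells had 10 Dll4 UMIs in each library, at levels of 54.7 (26.2 to 101) and 37.7 (18.1 to 69.2). No Dll4 UMI was seen in smooth muscle cells, which allows levels of up to 23.8 and 30.7 at a limit of 3 counts.

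Jag2 was shared by arterial, capillary and venous endothelium and was at or near 0 in the endocardium. Arterial cells had 232 (164 to 318) in Sham and 194 (144 to 255) in TAC, venous cells 152 (119 to 191) and 112 (89.4 to 139) and capillary cells 132 (108 to 159.5) and 118 (98.4 to 140.3). The 192 Sham endocardial cells had no Jag2 UMI, which allows a level of up to 8.87, and the 301 TAC endocardial cells had 5, a level of 7.47 (2.43 to 17.4). The arterial level was 26.1 times the endocardial limit of 3 counts in Sham, a fold that leaves out the counting error of the arterial level. In TAC the arterial level was 25.9 (10.4 to 83.3) times the endocardial one. Pericytes had 5 and 2 Jag2 UMIs (2.72 and 1.04), and cardiomyocytes were at 9.58 and 6.94.

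**Figure D2:**
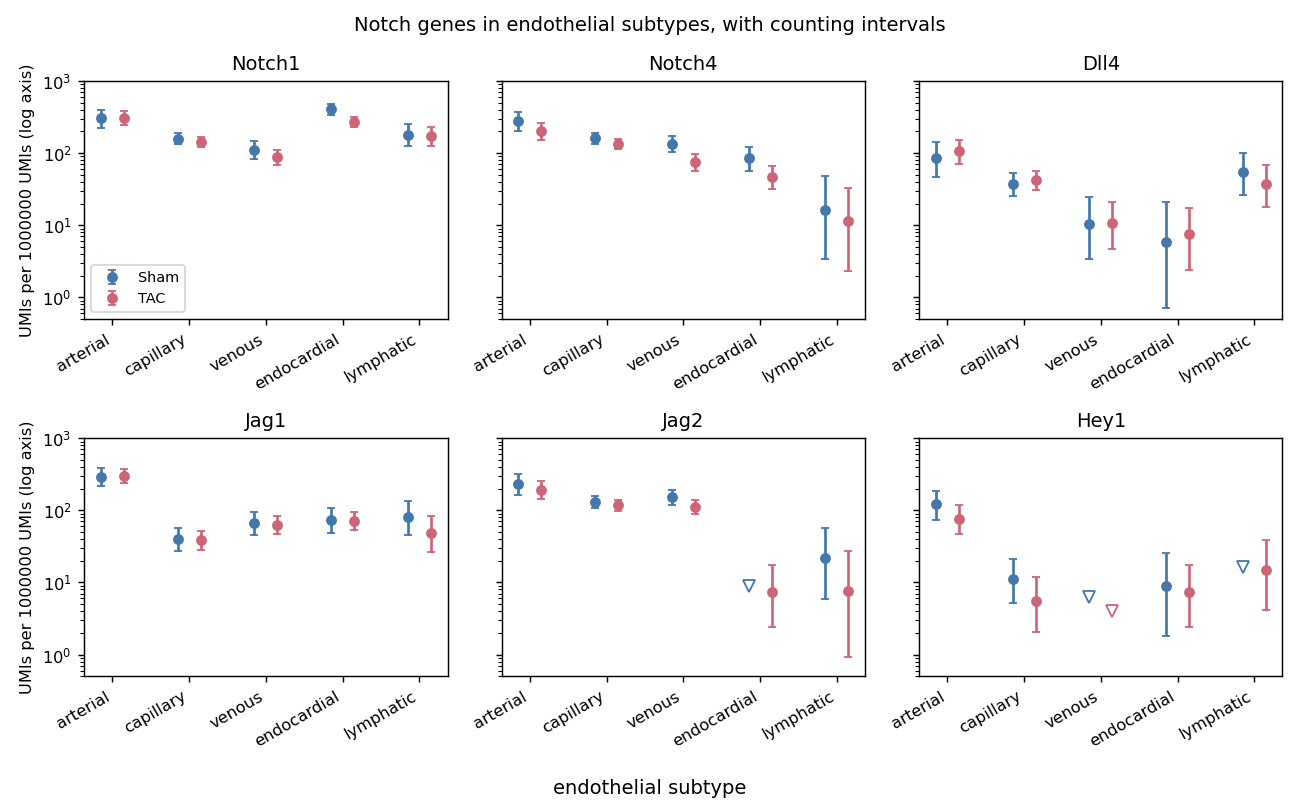
Levels of Notch genes in the endothelial subtypes of the Sham and TAC libraries (UMIs per 1000000 UMIs, log axis). Bars are exact 95% intervals for counting error and open triangles give the limit of 3 counts where no UMI was seen. Jag1 stands at 293 and 300.2 in arterial cells against 39.8 and 38.7 in capillary cells, and Jag2 at 0 and 7.47 in endocardial cells.

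Between arterial and capillary cells, 7 members had enough UMIs in both libraries. Dll4, Jag1 and Hey1 were at least 2 times higher in arterial cells in both, beside 1.93% of 5850 genes, and 0 were at least 2 times lower, beside 3.04%. Hey1 reached the minimum through arterial cells alone. The ratios of Notch1 (1.91 and 2.17), Notch4 (1.73 and 1.496) and Jag2 (1.76 and 1.64) were above 1 in both libraries without passing in both. With at least 500 detected genes per cell Jag2 passed in both (2.96 and 3.07), and with no doublets removed Notch1 did (2.39 and 2.48). Hes1 had a ratio of 0.864 (0.297 to 2.08) in Sham and 0.757 (0.327 to 1.56) in TAC. Of the 38 other pathway genes 20 had enough UMIs and 1 passed. Neurl1b, a ubiquitin ligase of Notch ligands, had 1 UMI in the arterial cells of each library against 29 and 49 in capillary cells, with a ratio of 0.169 (0.00414 to 1.02) in Sham and 0.0841 (0.00209 to 0.491) in TAC, and so reached the minimum through capillary cells alone.

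Against venous cells, 4 of 5 members with enough UMIs (Notch1, Notch4, Jag1 and Hey1) were at least 2 times higher in arterial cells, beside 2.68% of 4360 genes, Hey1 again through arterial cells alone. Against endocardial cells 4 of 6 (Notch4, Jag1, Jag2 and Hey1) were, beside 8.24% of 3591, Jag2 and Hey1 through arterial cells alone. Endocardial cells were at least 2 times lower than capillary cells in Dll4 and Jag2, 2 of 6 members beside 10.5% of genes, and venous cells were so in Dll4, 1 of 6 beside 2.43%. All of these lower calls rest on genes that reached the minimum through capillary cells alone.

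Of the targets, Hey1, known from arterial endothelium, had 20 UMIs in the arterial cells of each library, a level of 122 (74.5 to 188) in Sham and 76.0 (46.4 to 117) in TAC, against 11.2 (5.12 to 21.3) and 5.53 (2.03 to 12.04) in capillary cells. The arterial to capillary ratio was 10.9 (4.74 to 27.2) in Sham and 13.7 (5.32 to 41.8) in TAC, and the alternative settings moved it from 4.66 to 35.0 in Sham and 3.81 to 31.2 in TAC. Venous cells had no Hey1 UMI in either library. The arterial level was 19.2 times the venous limit of 3 counts in Sham and 18.7 times in TAC. These folds leave out the counting error of the arterial level. Pericytes had 15 and 12 Hey1 UMIs (8.17 and 6.24).

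Hey2, known from smooth muscle and ventricular cardiomyocytes, had 22 and 19 UMIs in smooth muscle cells, a level of 175 (109.6 to 265) in Sham and 195 (117 to 304) in TAC. Pericytes had 39.7 (31.2 to 49.97) and 39.5 (31.1 to 49.4), and the ratio of smooth muscle cells to pericytes was 4.40 (2.60 to 7.17) in Sham and 4.93 (2.82 to 8.24) in TAC. Cardiomyocytes stood at 10.6 (8.95 to 12.5) and 8.39 (6.90 to 10.1) and held 53.0% and 47.6% of all Hey2 UMIs, in a type that holds many of the UMIs of each library. Blood endothelial cells had 4 and 6 Hey2 UMIs.

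Heyl, a target known from mural cells, was at 201 (181 to 223) in Sham and 196 (177 to 217) in TAC in pericytes and at 105 (96.1 to 114) in Sham and 115 (106 to 125) in TAC in fibroblasts. Fibroblasts held 56.8% and 58.1% of its UMIs and pericytes 37.0% and 36.8%. Smooth muscle cells had 9 and 11 UMIs, a level of 71.5 (32.7 to 136) and 113 (56.3 to 202). Within fibroblasts the level ran from 63.9 (49.4 to 81.5) in a Sham cluster of 350 cells to 121 (104 to 141) in one of 774, and from 56.2 (44.3 to 70.2) in a TAC cluster of 527 cells to 141 (93.0 to 205) in one of 59. Blood endothelial cells had 19 and 10 Heyl UMIs (7.83 and 3.09), beside the pericyte marker sum given above and a fibroblast marker sum of 353 and 483, and the part of RNA of those cells was not tested.

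Hes1, a target that also responds to signals other than Notch, was seen in most types. Pericytes had 95.8 (82.2 to 111) in Sham and 88.8 (76.0 to 103) in TAC, lymphatic cells 82.0 (45.9 to 135) and 113 (76.2 to 161), smooth muscle cells 103 (55.0 to 177) and 61.5 (22.6 to 134) and fibroblasts 51.6 (45.8 to 58.0) and 50.9 (44.9 to 57.4). All blood endothelial cells together were at 41.2 (33.5 to 50.1) and 54.1 (46.4 to 62.7). Schwann cells were at 228 and 219.7, from 7 and 6 UMIs in 17 and 15 cells. The summed level of 11 immediate-early genes, which can be induced by tissue dissociation, was 377 and 367 in blood endothelial cells, 158 and 149 in pericytes and 233 and 361 in fibroblasts. The part of dissociation in the Hes1 levels was not tested.

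Pericytes and blood endothelial cells split the members. Notch3, Jag1, Hey2 and Heyl were at least 2 times higher in pericytes, 4 of 10 beside 9.88% of 10714 genes, and Notch4 and Jag2 at least 2 times lower, 2 of 10 beside 15.3%. Hey2 and Heyl reached the minimum through pericytes alone, and Jag2 through blood endothelial cells alone. Between the mural types, Hey2 was higher and Notch1 and Notch4 were lower in smooth muscle cells, 1 and 2 of 7 members beside 4.45% and 13.7% of genes, Notch1 and Notch4 through pericytes alone. In fibroblasts against blood endothelium, Heyl was higher and Notch1, Notch4, Dll4, Jag2 and Hey1 were lower, 1 and 5 of 9 members beside 14.7% and 11.1%. Heyl reached the minimum there through fibroblasts alone, and Dll4, Jag2 and Hey1 through blood endothelial cells alone. Lymphatic cells were lower than blood endothelium in Notch3, Notch4 and Jag2, 3 of 8 members beside 11.0%, with intervals for Notch3 that hold 1, and all of them reached the minimum through blood endothelial cells alone.

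Across 23 pairs of cell type and library with at least 50000 UMIs, the genes whose log2 level followed Dll4 most closely among 15563 genes were Btnl9 (Pearson r of 0.896), Abhd17a (0.882), Als2cl (0.873), Gm42981 (0.870) and Myct1 (0.864). Btnl9 was 1 of the markers that named capillary cells, but its level was higher in arterial cells (1018 and 775) than in capillary cells (472 and 370). Among the members, Notch4 (0.814), Notch1 (0.752) and Jag2 (0.723) were nearest to Dll4. The genes most like Notch3 were Dlc1 (0.921), Bmp5 (0.917), Tpm2 (0.904), Gm38251 (0.903) and Arhgef17 (0.894), and the nearest members were Hey2 (0.788) and Heyl (0.648). The points share their libraries and, in pairs, their cell type, so these values only describe likeness.

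Between the conditions most members stood close together. In all blood endothelial cells 8 members had enough UMIs and 0 passed in either direction, beside 12.4% of 11611 genes upward and 6.67% downward. The median ratio of TAC to Sham was 0.805 over these members and 1.04 over all genes. Of the other pathway genes 30 had enough UMIs, with a median ratio of 1.05, and 2 passed, both downward. These were Mib2, a ubiquitin ligase of Notch ligands, at 28.9 and 15.8 (0.546, 0.373 to 0.795), and Spen, a corepressor at Notch targets, at 166 and 110.0 (0.664, 0.574 to 0.767).

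Among the members with enough UMIs, Notch4 and Jag2 had the lowest ratios in all blood endothelial cells. Heyl, below the minimum with 19 and 10 UMIs, was at 0.395 (0.164 to 0.892). Notch4 was at 157 (141 to 173) in Sham and 108 (96.8 to 119.8) in TAC in all blood endothelial cells, from 380 and 349 UMIs, a ratio of 0.688 (0.594 to 0.798). Its ratio was 0.718 (0.475 to 1.09) in arterial, 0.832 (0.652 to 1.06) in capillary, 0.560 (0.384 to 0.815) in venous and 0.540 (0.315 to 0.929) in endocardial cells. Venous and endocardial cells passed the fold, 1 of 5 and 1 of 4 members beside 7.07% and 8.03% of genes.

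Jag2 was at 143 (128 to 159) in Sham and 99.2 (88.6 to 111) in TAC in all blood endothelial cells, a ratio of 0.693 (0.594 to 0.809). It was nearer to 1 within subtypes, at 0.837 (0.539 to 1.31) in arterial, 0.895 (0.686 to 1.17) in capillary and 0.738 (0.532 to 1.03) in venous cells. It passed the fold in the endothelial cells with no subtype, at 203 and 113 (0.556, 0.397 to 0.769), 1 of 6 members beside 11.2% of genes. Those cells, most of them in a cluster led by the cardiomyocyte genes Myh6 and Ttn, were 612 of 1903 Sham and 483 of 2252 TAC blood endothelial cells. Endocardial cells, lowest in Notch4 and Jag2 among the named subtypes, were 192 of the Sham and 301 of the TAC cells. The part of the subtype mix in the pooled Notch4 and Jag2 ratios was not tested.

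Notch1 had a ratio of 0.860 (0.759 to 0.975) in all blood endothelial cells, 0.668 (0.532 to 0.840) in endocardial cells, just inside the fold, and 1.01 (0.701 to 1.47) in arterial cells. Dll4 (1.04, 0.768 to 1.41) and Jag1 (1.04, 0.850 to 1.27) were near 1 in blood endothelium. Hey1 was at 0.623 (0.318 to 1.22) in arterial cells and was the only member past the fold there, 1 of 6 beside 9.31% of 2878 genes, with an interval that holds 1.

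In pericytes 8 members had enough UMIs, 0 passed upward beside 10.1% of 9740 genes, and 2 passed downward beside 8.00%. These were Notch4, at 69.1 (57.6 to 82.3) in Sham and 40.5 (32.0 to 50.6) in TAC (ratio 0.586, 0.436 to 0.783), and Dll4, at 16.3 and 9.87 from 30 and 19 UMIs (ratio 0.604, 0.321 to 1.11), an interval that holds 1. Dll4 reached the minimum through Sham alone, so its call is a description. The endothelial marker sum in pericytes was 288 and 274, and the part of endothelial RNA in the pericyte Notch4 and Dll4 counts was not tested. Notch3 (1.03, 0.975 to 1.08), Heyl (0.975, 0.843 to 1.13), Hey2 (0.994, 0.711 to 1.39), Hes1 (0.927, 0.747 to 1.15) and Jag1 (0.878, 0.759 to 1.02) were close to 1. Of 29 other pathway genes with enough UMIs 2 passed upward and 1 downward. The former were Nrarp, a target that limits the pathway (2.12, 0.923 to 5.29), and Ncstn, a part of the gamma-secretase that cleaves the receptor (1.53, 1.04 to 2.27), and the latter Numbl, a relative of the Notch inhibitor Numb (0.605, 0.355 to 1.01).

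In smooth muscle cells Notch3 had a ratio of 1.29 (1.04 to 1.60) and Hey2 of 1.11 (0.570 to 2.16). Jag1, at 0.528 (0.214 to 1.19), was the 1 of 3 members there past the fold, beside 18.6% of 1178 genes. With 22 and 9 UMIs it reached the minimum through Sham alone, so this call is a description. In fibroblasts the 7 members with enough UMIs lay within the fold, with Heyl at 1.10 (0.979 to 1.24) and Jag1 at 0.842 (0.716 to 0.990), beside 13.1% of genes upward and 5.55% downward.

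**Figure D3:**
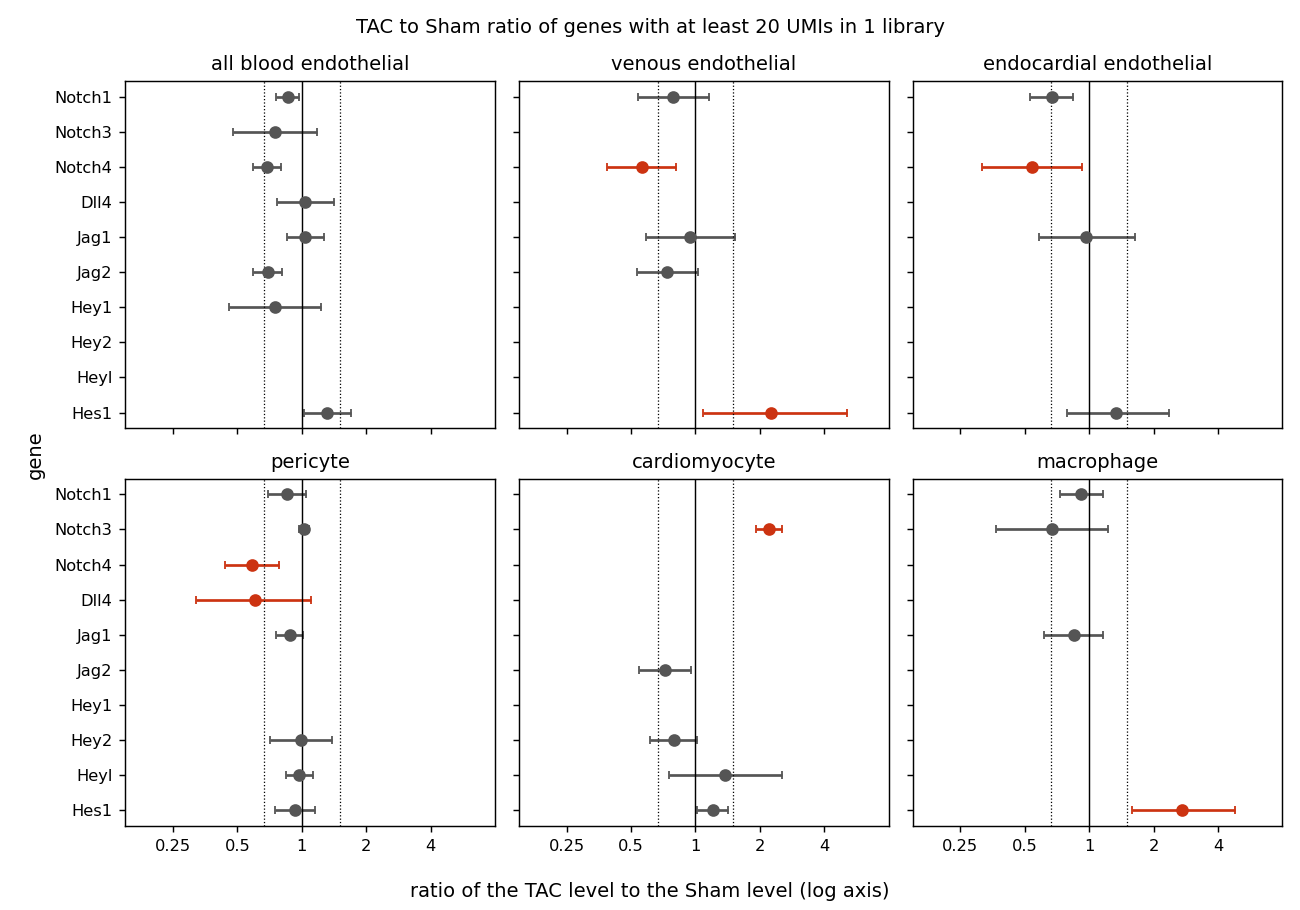
Ratio of the TAC to the Sham level (log axis) of members with at least 20 UMIs in 1 library, by cell type. Points in red pass 1.5 times in either direction and bars are exact 95% intervals for counting error. Notch3 in cardiomyocytes stands at 2.21 and Notch4 in pericytes at 0.586.

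Notch3 was higher in TAC than in Sham cardiomyocytes. The Sham cells had 286 Notch3 UMIs and the TAC cells 615, levels of 21.2 (18.9 to 23.9) and 46.9 (43.3 to 50.8) and a ratio of 2.21 (1.92 to 2.55). It was the only 1 of 5 members with enough UMIs to pass upward, beside 15.3% of 14555 genes. At 1000 UMIs per cell, 2.18% (1.64 to 2.84) of 2474 Sham and 4.78% (3.96 to 5.71) of 2385 TAC cardiomyocytes had a Notch3 UMI, against 1.19% and 1.25% of blood endothelial cells. Unthinned, the cardiomyocyte shares were 10.3% and 20.4%, at medians of 4505 and 4914.5 UMIs. The UMIs lay in 258 and 489 cells, with at most 3 and 7 in 1 cell. By cluster the level was 18.4 (15.8 to 21.3), 26.0 (16.3 to 39.3) and 29.0 (23.3 to 35.8) in Sham and 43.6 (38.5 to 49.1) and 49.9 (44.8 to 55.4) in TAC. The interval of the smallest Sham cluster reaches that of a TAC cluster. The clusters of a condition are parts of 1 library and split the same UMIs, so they are not replicates and only describe where the UMIs lay.

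The pericyte markers in the same cardiomyocytes did not move together. Rgs5 was at 5.57 and 4.88 (0.876, 0.618 to 1.24), Pdgfrb at 5.42 and 5.64 (1.04, 0.743 to 1.46) and Cspg4 at 16.6 and 10.6 (0.637, 0.512 to 0.791). Kcnj8 was at 1.11 and 2.06 (1.85, 0.949 to 3.74), while Abcc9, a potassium channel subunit that cardiomyocytes also make, was at 228 and 312 (1.37, 1.31 to 1.44). The sum of the 9 markers was 259 and 337. In the 1001 and 694 cardiomyocytes without a UMI of any pericyte marker, an alternative chosen after seeing the data, Notch3 was at 20.8 (16.6 to 25.7) and 40.3 (33.5 to 48.1), a ratio of 1.94 (1.46 to 2.59). Abcc9 gives most of the marker sum, so this split mainly leaves out cells with an Abcc9 UMI, and the part of pericyte RNA in the cardiomyocyte Notch3 count was not tested. With each cell typed from its markers alone rather than from its cluster the ratio was 1.30 (1.20 to 1.40).

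Gm17276, which overlaps Notch3 on the other strand, had more UMIs than Notch3 in cardiomyocytes. It was at 212 and 263 there (1.24, 1.18 to 1.30) and at 168 and 390.2 in pericytes (2.32, 2.03 to 2.66), where the Notch3 ratio was 1.03. Whether the counting used the strand is not given in the sources used here, so reads of these genes may not be fully separated, and the part of the overlap in the Notch3 count was not tested. Of the genes on the other strand of Notch1 and Dll4, 0610009E02Rik was at 13.6 and 24.1 and Gm14207 at 10.7 and 8.65 in blood endothelial cells.

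**Figure D4:**
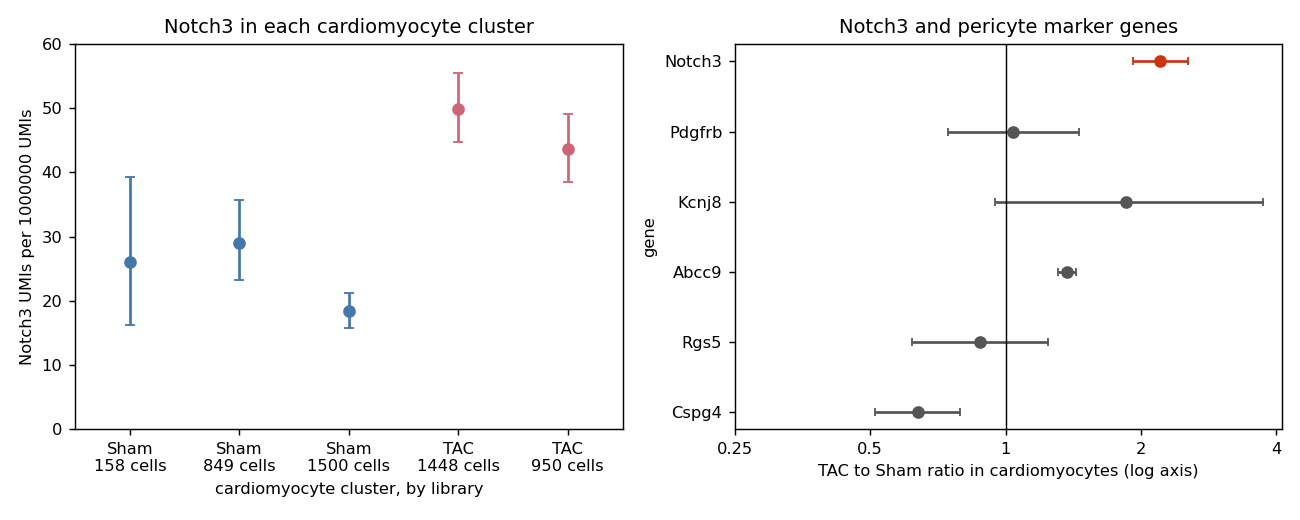
Notch3 level in each cardiomyocyte cluster of the Sham and TAC libraries (UMIs per 1000000 UMIs), beside the ratio of TAC to Sham in cardiomyocytes (log axis) for Notch3 and pericyte markers. Bars are exact 95% intervals for counting error. The ratio of Notch3 is 2.21, beside 1.04 for Pdgfrb, 0.876 for Rgs5, 0.637 for Cspg4, 1.37 for Abcc9 and 1.85 for Kcnj8.

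Hes1 passed the fold upward in macrophages and venous cells. In both types it reached the minimum through TAC alone, so both calls are descriptions. Macrophages had 19 and 60 Hes1 UMIs, in 17 and 46 cells, levels of 8.60 (5.18 to 13.4) and 23.3 (17.8 to 29.95) and a ratio of 2.70 (1.59 to 4.80), 1 of 4 members beside 11.7% of 10793 genes. The immediate-early sum in macrophages was 321 and 336. In venous cells Hes1 was at 21.1 and 47.3 from 10 and 35 UMIs (2.24, 1.09 to 5.08), 1 of 5 members beside 14.3% of genes, with an immediate-early sum of 365 and 375. The ratio was 1.31 (1.02 to 1.69) in all blood endothelial cells, 1.20 (1.02 to 1.42) in cardiomyocytes and 0.985 (0.830 to 1.17) in fibroblasts.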

How the data were processed

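The authors deposited a count matrix per library, made with Cell Ranger 7.1.0 per the file headers and labels (the methods of the study name another version and kit chemistry). The deposited values are counts of UMIs per gene and barcode, not normalized, from 10x 3-prime libraries of 3 to 5 pooled hearts each. The genome build, annotation and strand setting are not given in the sources used here. The Sham file held 9935 barcodes and 28146691 UMIs and the TAC file 9932 and 29108986, with medians of 1964 and 2143 UMIs per barcode.

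Barcodes with under 200 detected genes (1 per library) and doublets called by Scrublet in scanpy 1.11.5 (469 and 472) were removed. Each library was clustered by Leiden at resolution 1 on 2000 variable genes and 30 principal components, without the 48 Notch pathway genes, and blood endothelial cells of both libraries were clustered again together. Naming a cluster took 3 or more markers of a type. The rules that name lymphatic cells and that leave endothelial clusters led by genes of other types without a subtype were set after the first clustering was seen. Members, marker lists and pathway lists were chosen with earlier results of these data known.

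UMIs were summed per cell type and library and given per 1000000 UMIs. Intervals are exact Poisson (levels), exact conditional binomial (ratios) and Clopper-Pearson (shares) at 95%, computed with scipy 1.17.1, and the code was tested on simulated data. A level of 0 was given a limit of 3 counts. Likeness was Pearson's r of log2(level + 1) over genes with at least 100 UMIs. All members were described. Other pathway genes were named where they passed 1.5 times between conditions in blood endothelial cells or pericytes or 2 times between arterial and capillary cells, as were the 5 genes most like Dll4 and Notch3. Alternatives changed the cell filters, doublet removal, clustering, typing, totals, minimum count and thinning. A pair of alternatives (capillary-marked clusters counted as capillary, and cardiomyocytes without a pericyte marker UMI) was chosen after seeing the data.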

Additional observations from a re-analysis of the deposited data

How the results depend on the processing

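Each condition has 1 library of pooled hearts, so intervals cover counting error and no value has a replicate check. No paired analysis was possible because Sham and TAC were measured in 1 library each. Of 209 alternative values of the TAC to Sham ratios 208 stayed within counting error of the value reported, and the exception was Notch3 in cardiomyocytes. Arterial values moved most, with the share of cells called arterial, and Dll4 and Hey1 rest on few UMIs. The values that moved are given by setting, 1 of them (Dll4 in TAC with at least 500 detected genes) to the other side of 1, and the cause was not tested.

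With at least 500 detected genes per cell there was an arterial to capillary Dll4 ratio of 0.978 in TAC, an arterial to capillary Jag2 ratio of 2.96 in Sham and 3.07 in TAC, an arterial to capillary Hey1 ratio of 3.90 in TAC and an arterial Jag1 level of 564 in Sham and 444 in TAC. In that setting there was also an arterial Dll4 level of 62.3 in TAC, a capillary Jag2 level of 86.2 in TAC, a share of arterial cells of 0.489% in Sham and 0.840% in TAC and a share of blood endothelial cells of 18.4% in Sham and 22.5% in TAC. The same setting gave a count of genes past the arterial to capillary fold of 396 downward. With at most 25% mitochondrial UMIs there was a share of arterial cells of 1.15% in Sham and 1.74% in TAC. With no doublets removed there was an arterial to capillary Hes1 ratio of 0.179 in Sham, a pericyte Notch3 level of 1382 in Sham and 1445 in TAC, an arterial Jag1 level of 409 in Sham and a capillary Jag2 level of 164 in Sham. It also gave a share of arterial cells of 0.997% in Sham and 1.63% in TAC and a count of genes past the arterial to capillary fold of 173 upward and 365 downward. At resolution 2 there was an arterial to capillary Dll4 ratio of 1.21 in TAC, an arterial to capillary Hey1 ratio of 4.29 in TAC, an arterial Jag1 level of 572 in Sham and 471 in TAC and an arterial Dll4 level of 62.8 in TAC. In that setting there was also a capillary Jag2 level of 161 in Sham, a share of arterial cells of 0.486% in Sham and 0.825% in TAC and a count of genes past the arterial to capillary fold of 228 upward and 638 downward. With 3000 variable genes and 50 principal components there was an arterial to capillary Dll4 ratio of 5.55 in Sham, an arterial to capillary Jag1 ratio of 13.5 in Sham and 13.4 in TAC, an arterial to capillary Jag2 ratio of 2.85 in Sham and an arterial to capillary Hey1 ratio of 35.0 in Sham. The same setting gave an arterial Jag1 level of 593 in Sham and 526 in TAC, a share of arterial cells of 0.359% in Sham and 0.581% in TAC and a count of genes past the arterial to capillary fold of 489 downward. With both libraries clustered together there was a share of arterial cells of 1.74% in TAC. With the endothelial cells of each library clustered alone there was an arterial to capillary Dll4 ratio of 1.39 in TAC, an arterial to capillary Hey1 ratio of 3.81 in TAC, an arterial Jag1 level of 462 in TAC and an arterial Dll4 level of 66.1 in TAC. It also gave a share of arterial cells of 0.751% in TAC. At endothelial resolution 0.5 there was an arterial to capillary Hes1 ratio of 0.181 in Sham, an arterial Jag1 level of 407 in Sham and 382 in TAC, a capillary Jag2 level of 164 in Sham and a share of arterial cells of 0.919% in Sham and 1.45% in TAC. In that setting there was also a count of genes past the arterial to capillary fold of 373 downward. At endothelial resolution 2 there was a share of arterial cells of 1.02% in Sham and 1.56% in TAC. With each cell typed from its markers alone there was a TAC to Sham Notch3 ratio in cardiomyocytes of 1.30, an arterial to capillary Jag1 ratio of 4.73 in TAC, an arterial to capillary Jag2 ratio of 1.15 in TAC and an arterial to capillary Hey1 ratio of 4.66 in Sham and 4.47 in TAC. The same setting gave a pericyte Notch3 level of 1526 in Sham, an arterial Jag1 level of 215 in Sham and 202 in TAC, an arterial Dll4 level of 62.3 in TAC and an arterial Hey1 level of 69.4 in Sham and 36.7 in TAC. It also gave a share of arterial cells of 1.82% in TAC, a share of pericyte cells of 6.56% in Sham and 7.89% in TAC, a share of blood endothelial cells of 13.0% in Sham and 18.7% in TAC and a count of genes past the arterial to capillary fold of 100 downward. With the Notch pathway genes kept for clustering there was an arterial to capillary Dll4 ratio of 12.3 in Sham, an arterial Jag1 level of 389.5 in Sham and a share of arterial cells of 1.10% in Sham and 1.69% in TAC. With a minimum of 50 UMIs there was a count of genes past the TAC to Sham fold in blood endothelial cells of 688 upward and 389 downward, a count of genes past the TAC to Sham fold in pericytes of 380 upward and 321 downward and a count of genes past the arterial to capillary fold of 53 upward and 80 downward. Thinned to 500 UMIs there was a share of pericyte cells with a Notch3 UMI of 46.0% in Sham and 48.9% in TAC, a share of cardiomyocyte cells with a Notch3 UMI of 0.917% in Sham and 2.59% in TAC and a share of arterial cells with a Jag1 UMI of 12.4% in Sham and 11.4% in TAC. Thinned to 2000 UMIs there was a share of pericyte cells with a Notch3 UMI of 86.5% in Sham and 93.1% in TAC, a share of cardiomyocyte cells with a Notch3 UMI of 4.15% in Sham and 7.68% in TAC and a share of arterial cells with a Jag1 UMI of 30.4% in TAC. Without thinning there was a share of pericyte cells with a Notch3 UMI of 79.8% in Sham and 85.8% in TAC and a share of cardiomyocyte cells with a Notch3 UMI of 10.3% in Sham and 20.4% in TAC.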
